A study of Mus musculus with 8 samples.

Results

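The interaction of Tspan8 and MHCII levels in mouse medullary thymic epithelial cells (mTECs) was examined, that is, the genes whose Tspan8 difference depended on the MHCII level of the cells. All 8 libraries of the series enter the comparison, which asks for each gene whether the ratio of Tspan8pos to Tspan8neg cells was the same in MHCIIlo and in MHCIIhi cells. It was tested as the log2 Tspan8 difference within MHCIIlo minus that within MHCIIhi for 17006 of the 25466 genes in the deposited table. The 8 libraries are 2 labelled biological replicates of each of 4 subsets, Tspan8negMHCIIlo, Tspan8negMHCIIhi, Tspan8posMHCIIlo and Tspan8posMHCIIhi. All came from thymi of wild-type BL6N6 mice aged 4 to 6 weeks, as given for the study's animals, and each subset was sorted by FACS from thymic stroma depleted of CD45pos cells, with antibodies to CD45, EpCAM, CDR1, MHCII and Tspan8. How many mice gave a library is not given in the sources used here. Tspan8 and MHCII proteins set the gates, so the transcripts of Tspan8 and of MHCII genes check the sort and are not results of it.

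mTECs display self-antigens to developing T cells and do so by transcribing genes that are otherwise restricted to single tissues, a process called promiscuous gene expression. Each such tissue-restricted antigen (TRA) is made by a small share of the cells, and Tspan8, a tetraspanin of gut epithelium, is one of them. MHCII rises when mTECs mature into Aire-expressing cells and falls again afterwards, so MHCIIlo cells include immature, basal-type mTECs as well as late cells that have keratinized or taken on the programme of another tissue, such as Tuft, microfold or neuroendocrine cells. A gene with the same Tspan8 difference at both MHCII levels has an interaction of 0, and the sign of the interaction depends on all 4 subsets together.

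Library totals ran from 1941518 to 7783841 counts, and replicates differed by more than counting noise, with a chi-square per gene between 3.434 and 9.991. The highest of these was in Tspan8negMHCIIlo, where 12 thymocyte markers summed to 521 CPM (counts relative to the library total, scaled by the TMM method) in replicate 1 and to 1480 in replicate 2, against 78.8 to 252 in the other 6 libraries. Transcripts encoded by mitochondrial DNA took 1.68% and 1.6% of the counts of Tspan8negMHCIIlo and 0.575% to 0.77% of the counts elsewhere. Epcam was measured at 518 and 367 CPM in Tspan8negMHCIIlo, 554 and 508 in Tspan8negMHCIIhi, 1080 and 954 in Tspan8posMHCIIlo and 866 and 754 in Tspan8posMHCIIhi. MHC class II presentation genes summed to 12400 and 10200 CPM in Tspan8negMHCIIlo and 31300 and 32000 in Tspan8negMHCIIhi. Their sum was 4220 and 3960 in Tspan8posMHCIIlo and 15200 and 16000 in Tspan8posMHCIIhi. The Tspan8 classes were thus not matched for these transcripts within an MHCII level, and the part of this in the interactions was not tested. The sorted Tspan8 transcript lay at 3.65 and 14.6 CPM in Tspan8negMHCIIlo, 7.07 and 8.72 in Tspan8negMHCIIhi, 347 and 366 in Tspan8posMHCIIlo and 404 and 352 in Tspan8posMHCIIhi, with an interaction of -0.32 ± 0.50 (SE, edgeR adjusted p = 0.745), so its Tspan8 difference was not called different between the MHCII levels. Without replicate 2 of Tspan8negMHCIIlo this value turned to 1.04 with an edgeR adjusted p of 0.0808.

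By edgeR's quasi-likelihood test 783 genes were called, with a Benjamini-Hochberg adjusted p under 0.01 and an interaction of at least 1 on the log2 scale, 4.6% of all genes tested. In 402 genes (2.36% of all tested) the ratio of Tspan8pos to Tspan8neg cells was higher in MHCIIlo, and in 381 (2.24%) it was higher in MHCIIhi. These are called here the MHCIIlo-biased and the MHCIIhi-biased genes, and the bias is one of the ratio, not of the level. Their median absolute interaction was 2.06 and 1.89 on the log2 scale. The 4 ratios that the libraries of a MHCII level allow did not overlap between the levels in any of the 783 genes, as was the case for 43.4% of all genes tested. The genes were called on the same libraries, so this describes them and adds no support. In 358 of the 402 and 377 of the 381 genes every subset averaged more than 3 counts, the floor below which a fitted fold is not resolved. On the linear CPM scale the difference of differences kept its sign in 388 of the 402 and 362 of the 381. Genes named below whose sign was the opposite on that scale include Krt4, Crnn, Lypd2 and Il1rn among the MHCIIlo-biased. Among the MHCIIhi-biased they include Ciita, H2-DMb2, Runx1 and Gnb3.

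The number of calls moved with single libraries. Fits without 1 library reuse the libraries of the main fit, so an unchanged direction in them is not independent support. It rose to 1229 without replicate 1 and to 1385 without replicate 2 of Tspan8negMHCIIlo, of which 629 were MHCIIlo-biased and 756 MHCIIhi-biased. It fell to 294 and 273 without replicate 1 and 2 of Tspan8negMHCIIhi, to 325 and 189 without those of Tspan8posMHCIIlo, and to 271 and 301 without those of Tspan8posMHCIIhi. Without replicate 2 of Tspan8negMHCIIlo 745 of the 783 genes were called again, and in none of these fits did a gene called both times change direction.

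**Figure D1:**
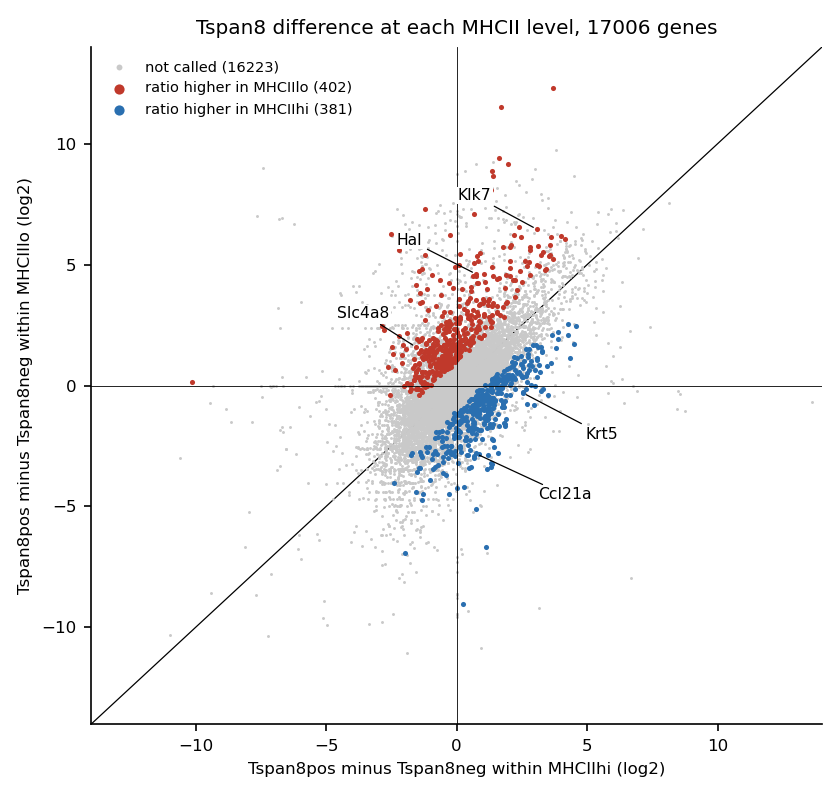
Log2 difference of Tspan8pos minus Tspan8neg mTECs within MHCIIhi (horizontal axis) and within MHCIIlo (vertical axis) for the 17006 genes tested, 1 point a gene, with 402 genes called with a higher ratio in MHCIIlo in red, 381 called with a higher ratio in MHCIIhi in blue and the others in grey. The diagonal marks an interaction of 0, red points lie above it and blue points below it.

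The Tspan8neg subsets held most of the extreme means. Of the 402 MHCIIlo-biased genes, 358 (89.1%) had their lowest mean in Tspan8negMHCIIlo, which is the lowest subset of 27.4% of all genes tested, and their highest mean was in Tspan8negMHCIIhi in 179, in Tspan8posMHCIIlo in 150 and in Tspan8posMHCIIhi in 73. Of the 381 MHCIIhi-biased genes, 267 (70.1%) had their highest mean in Tspan8negMHCIIlo, as did 30.6% of all genes tested, and 286 (75.1%) their lowest in Tspan8negMHCIIhi, as did 28.4%. A positive interaction is itself a low Tspan8negMHCIIlo or Tspan8posMHCIIhi or a high Tspan8negMHCIIhi or Tspan8posMHCIIlo, so these counts describe which of the 4 subsets carried it.

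Shapes were read from the 6 pairwise contrasts of the subsets, a single trough being a lowest subset called below each of the other 3 and a single peak a highest subset called above each of them. The most frequent shape was a trough in Tspan8negMHCIIlo, with 194 genes, all MHCIIlo-biased, where 2.62% of all genes tested had this shape. A trough in Tspan8negMHCIIhi was found in 127 genes (2.11% of all tested) and a peak in Tspan8negMHCIIlo in 115 (2.9%), all of them MHCIIhi-biased. Peaks in Tspan8negMHCIIhi (50 genes, 2.92% of all tested) and in Tspan8posMHCIIlo (40 genes, 0.923%) were MHCIIlo-biased. Single shapes set by the other Tspan8pos cases were few, with 13 troughs in Tspan8posMHCIIlo (0.406% of all tested), 7 peaks in Tspan8posMHCIIhi (0.3%) and 2 troughs in Tspan8posMHCIIhi (0.0647%). Another 44 genes had both a peak and a trough (1.61% of all tested), 20 of them MHCIIlo-biased and 24 MHCIIhi-biased, and 191 had no such shape (86.2% of all tested).

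**Figure D2:**
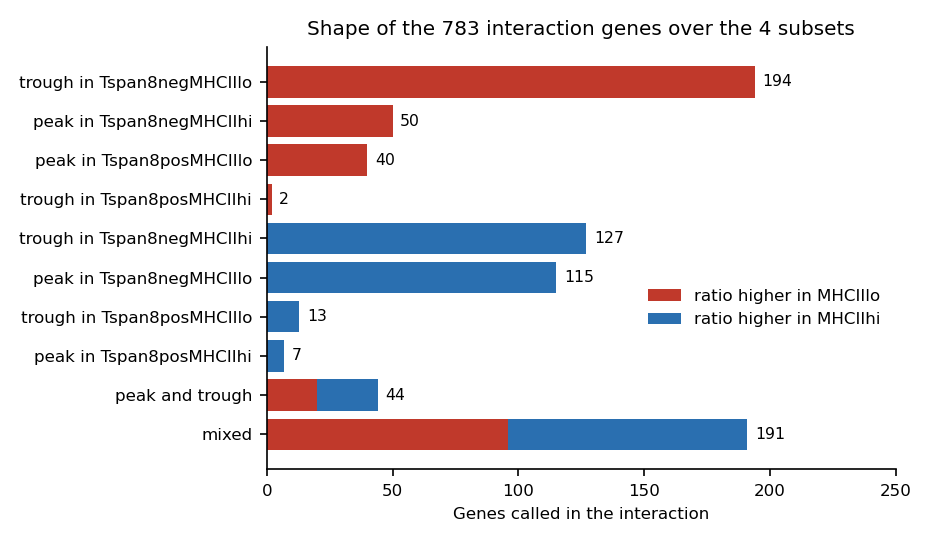
Number of the 783 interaction genes in each shape over the 4 subsets, with genes of a higher Tspan8 ratio in MHCIIlo in red and in MHCIIhi in blue. The longest bar of a single shape, 194 genes, is the trough in Tspan8negMHCIIlo, followed by 127 genes with a trough in Tspan8negMHCIIhi.

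Read through the Tspan8 contrasts, 201 of the MHCIIlo-biased genes were called higher in Tspan8pos cells within MHCIIlo alone, 73 at both MHCII levels and 58 were called lower within MHCIIhi alone. Another 24 were higher in Tspan8pos cells within MHCIIlo and lower within MHCIIhi, and 46 were called in neither contrast. Among the MHCIIhi-biased genes 146 were called lower in Tspan8pos cells within MHCIIlo alone, 133 higher within MHCIIhi alone, 24 higher at both levels, 15 lower at both, 17 lower within MHCIIlo and higher within MHCIIhi, and 46 in neither. For comparison, 12.1% of all genes tested were called higher and 9.34% lower in Tspan8pos cells within MHCIIlo, and 11% higher and 7.45% lower within MHCIIhi. Both contrasts feed the interaction, so these counts describe it and do not add support.

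The genes with the smallest adjusted p among the MHCIIlo-biased genes were led by Hal (histidine ammonia-lyase, which makes urocanic acid in the upper epidermis; chr10:93488768-93519304, plus strand of GRCm38, as are all coordinates here). Hal was measured at 6.74 and 8.72 CPM in Tspan8negMHCIIlo, 129 and 134 in Tspan8negMHCIIhi, 173 and 206 in Tspan8posMHCIIlo and 213 and 229 in Tspan8posMHCIIhi. Only the 2 Tspan8negMHCIIlo libraries were low, and the interaction was 3.86 ± 0.24 (SE, edgeR adjusted p = 8.47e-05), with a Tspan8 difference of 4.61 within MHCIIlo and 0.75 within MHCIIhi. Slc4a8 (chr15:100761747-100823968, plus strand), a sodium-driven bicarbonate exchanger, lay at 46.9 and 57.3 CPM in Tspan8negMHCIIlo, 273 and 281 in Tspan8negMHCIIhi, 164 and 149 in Tspan8posMHCIIlo and 92 and 98.5 in Tspan8posMHCIIhi. Its Tspan8 difference changed sign, 1.58 within MHCIIlo and -1.54 within MHCIIhi, for an interaction of 3.12 ± 0.20 (SE, edgeR adjusted p = 8.47e-05), and its 2 highest libraries were those of Tspan8negMHCIIhi. Strip2 (chr6:29917012-29959681, plus strand), a component of striatin-associated phosphatase complexes, had 82 and 84.4 CPM in Tspan8negMHCIIlo, 146 and 162 in Tspan8negMHCIIhi, 519 and 490 in Tspan8posMHCIIlo and 141 and 158 in Tspan8posMHCIIhi. Here the 2 Tspan8posMHCIIlo libraries stood above the other 6, and the interaction was 2.64 ± 0.19 (SE, edgeR adjusted p = 0.000137).

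Several of the next genes encode proteins of the epithelial surface. Psca, a GPI-anchored member of the Ly6 superfamily, was lowest in the 2 Tspan8negMHCIIlo libraries, with 1.97 and 1.65 CPM in Tspan8negMHCIIlo, 30.4 and 32.7 in Tspan8negMHCIIhi, 70.9 and 60.3 in Tspan8posMHCIIlo and 50.2 and 62.4 in Tspan8posMHCIIhi, and its interaction was 4.32 ± 0.33 (SE, edgeR adjusted p = 0.000175). Klk7, a kallikrein that cleaves the corneodesmosomes of shedding skin, was measured at 6.18 and 7.07 CPM in Tspan8negMHCIIlo, 26.2 and 33.3 in Tspan8negMHCIIhi, 639 and 537 in Tspan8posMHCIIlo and 276 and 231 in Tspan8posMHCIIhi. It was higher in Tspan8pos cells at both MHCII levels, by 6.46 within MHCIIlo and 3.08 within MHCIIhi, and the interaction of 3.38 ± 0.27 (SE, edgeR adjusted p = 0.000175) is the excess within MHCIIlo. Adgrg6, an adhesion G protein-coupled receptor, had 30.1 and 39.1 CPM in Tspan8negMHCIIlo, 57.4 and 53.4 in Tspan8negMHCIIhi, 385 and 355 in Tspan8posMHCIIlo and 78.7 and 67.9 in Tspan8posMHCIIhi, with the 2 Tspan8posMHCIIlo libraries above all others and an interaction of 3.01 ± 0.23 (SE, edgeR adjusted p = 0.000175). Unnamed transcripts overlap Adgrg6 on the opposite strand, and whether the counting used strand is not settled by the sources, so its counts are less certain.

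Pigz, a mannosyltransferase of GPI anchor synthesis, and Tnnt2, cardiac troponin T, were both lowest in Tspan8negMHCIIlo. Tnnt2 lay at 10.7 and 12.5 CPM in Tspan8negMHCIIlo, 121 and 124 in Tspan8negMHCIIhi, 55 and 57.2 in Tspan8posMHCIIlo and 99.4 and 103 in Tspan8posMHCIIhi, and its interaction was 2.55 ± 0.21 (SE, edgeR adjusted p = 0.000175). For Pigz, which overlaps a predicted gene on the same strand, the interaction was 3.06 ± 0.25 (SE, edgeR adjusted p = 0.000175). Plekhs1, a pleckstrin homology domain protein, had its lowest mean of 17.1 CPM in Tspan8negMHCIIlo and its highest of 205 in Tspan8posMHCIIlo, with an interaction of 2.56 ± 0.21 (SE, edgeR adjusted p = 0.000175). Ankrd33b, an ankyrin repeat protein, differed from these genes in its shape, with 71.9 and 65.3 CPM in Tspan8negMHCIIlo, 388 and 380 in Tspan8negMHCIIhi, 131 and 116 in Tspan8posMHCIIlo and 123 and 131 in Tspan8posMHCIIhi. Its peak was in Tspan8negMHCIIhi, and the interaction was 2.44 ± 0.19 (SE, edgeR adjusted p = 0.000175).

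**Figure D3:**
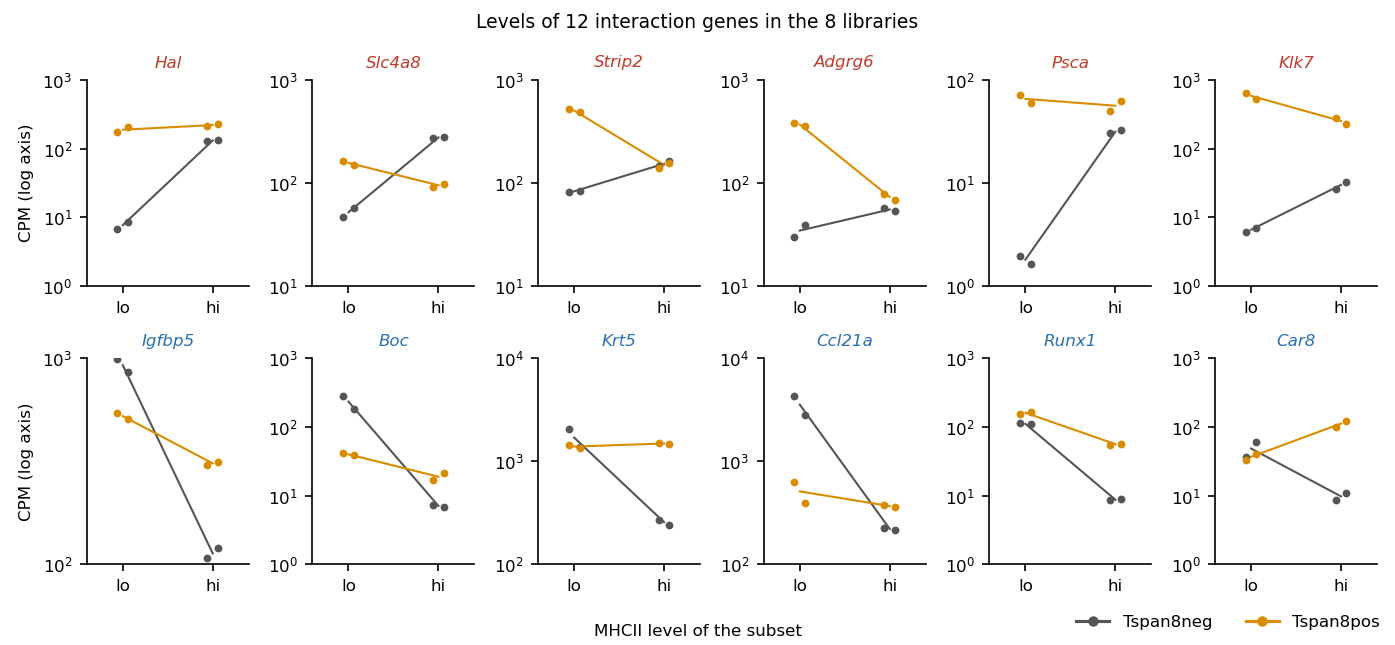
CPM (log axis) of 12 genes in the 8 libraries against the MHCII level, with 1 point a library, lines joining the subset means, Tspan8neg in grey and Tspan8pos in orange; red titles mark genes with a higher Tspan8 ratio in MHCIIlo and blue titles genes with a higher ratio in MHCIIhi. Lines that are not parallel show the interaction, as for Hal, where Tspan8neg means rise from MHCIIlo to MHCIIhi and Tspan8pos means stay close, and for Krt5, where the Tspan8neg line falls.

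Among the MHCIIhi-biased genes, 2 insulin-like growth factor binding proteins were near the top of the list. Igfbp5 (chr1:72857932-72874884, minus strand) was measured at 992 and 859 CPM in Tspan8negMHCIIlo, 107 and 120 in Tspan8negMHCIIhi, 541 and 507 in Tspan8posMHCIIlo and 305 and 314 in Tspan8posMHCIIhi. All 4 subsets were separate in these libraries, the order running from Tspan8negMHCIIlo down to Tspan8negMHCIIhi, and the interaction was -2.27 ± 0.18 (SE, edgeR adjusted p = 0.000175). Igfbp4 (chr11:99041244-99054392, plus strand) had 194 and 141 CPM in Tspan8negMHCIIlo, 19.8 and 23.2 in Tspan8negMHCIIhi, 56.1 and 53.6 in Tspan8posMHCIIlo and 54.6 and 59.1 in Tspan8posMHCIIhi. Its Tspan8 difference was -1.61 within MHCIIlo and 1.39 within MHCIIhi, an interaction of -3.01 ± 0.26 (SE, edgeR adjusted p = 0.000183). Boc, a co-receptor of hedgehog signalling, changed the sign of its Tspan8 difference in the same way, with 283 and 185 CPM in Tspan8negMHCIIlo, 7.28 and 6.92 in Tspan8negMHCIIhi, 41.2 and 38.8 in Tspan8posMHCIIlo and 16.7 and 21.1 in Tspan8posMHCIIhi and an interaction of -3.97 ± 0.33 (SE, edgeR adjusted p = 0.000175).

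Krt5 (chr15:101707070-101712898, minus strand), the keratin of basal epithelial cells, lay at 2040 and 1370 CPM in Tspan8negMHCIIlo, 272 and 242 in Tspan8negMHCIIhi, 1430 and 1340 in Tspan8posMHCIIlo and 1520 and 1460 in Tspan8posMHCIIhi. Only the Tspan8negMHCIIhi libraries were low, and the interaction was -2.83 ± 0.24 (SE, edgeR adjusted p = 0.000183), with a Tspan8 difference of -0.30 within MHCIIlo and 2.53 within MHCIIhi. Ccl21a, a ligand of Ccr7 that draws thymocytes into the medulla, was measured at 4280 and 2830 CPM in Tspan8negMHCIIlo, 226 and 217 in Tspan8negMHCIIhi, 628 and 393 in Tspan8posMHCIIlo and 377 and 359 in Tspan8posMHCIIhi, with a peak in Tspan8negMHCIIlo and an interaction of -3.54 ± 0.32 (SE, edgeR adjusted p = 0.000234). Reads of Ccl21a can be shared with near-identical gene copies, and its count is uncertain for that reason. Ccn1, a matricellular protein induced by stretch and growth factors, had 702 and 595 CPM in Tspan8negMHCIIlo, 91.3 and 104 in Tspan8negMHCIIhi, 220 and 217 in Tspan8posMHCIIlo and 147 and 165 in Tspan8posMHCIIhi and an interaction of -2.25 ± 0.20 (SE, edgeR adjusted p = 0.000226).

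Runx1, a transcription factor of blood and epithelial stem cells, was measured at 113 and 109 CPM in Tspan8negMHCIIlo, 8.53 and 8.97 in Tspan8negMHCIIhi, 157 and 164 in Tspan8posMHCIIlo and 55.4 and 57.3 in Tspan8posMHCIIhi. Its 2 lowest libraries were those of Tspan8negMHCIIhi, and its interaction was -2.15 ± 0.20 (SE, edgeR adjusted p = 0.000243). Hspb1, a small heat shock protein, had the same trough, with 762 and 810 CPM in Tspan8negMHCIIlo, 187 and 219 in Tspan8negMHCIIhi, 1030 and 993 in Tspan8posMHCIIlo and 908 and 947 in Tspan8posMHCIIhi and an interaction of -1.83 ± 0.18 (SE, edgeR adjusted p = 0.00026). Trim29, a tripartite motif protein of stratified epithelia, ran from a mean of 50.5 CPM in Tspan8negMHCIIhi to 381 in Tspan8posMHCIIlo, with an interaction of -1.94 ± 0.18 (SE, edgeR adjusted p = 0.000244). Car8, a carbonic anhydrase homologue without enzyme activity, was measured at 36 and 61.3 CPM in Tspan8negMHCIIlo, 8.53 and 11 in Tspan8negMHCIIhi, 33 and 40.7 in Tspan8posMHCIIlo and 99.2 and 124 in Tspan8posMHCIIhi, and its interaction was -3.86 ± 0.36 (SE, edgeR adjusted p = 0.000243). Krt5, Runx1, Car8 and Ccl21a are overlapped by unnamed transcripts on the opposite strand, which leaves part of their counts uncertain.

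Promoter sequences are shown for the 3 genes of smallest adjusted p in each class that have an entry in the RefSeq promoter table (GRCm38.p6), as the 250 bases before the annotated start, written 5′ to 3′ on the strand of the gene. Capitals mark matches on either strand to motifs of ETS and Kruppel-like factors, which the study examined, and to core promoter elements. AP-1, NF-kB and octamer motifs were added to these. The letters searched were CCGGAA for ETS factors, CCACCC for Kruppel-like factors, GGGCGG for the GC box, TGANTCA for AP-1, GGGA and CC with 4 bases between them for NF-kB, ATGCAAAT for the octamer, TATAAA for the TATA box and CCAAT for the CCAAT box.
The MHCIIlo-biased genes are Hal (chr10:93488518-93488767 on the plus strand), Slc4a8 (chr15:100761497-100761746 on the plus strand) and Strip2 (chr6:29916763-29917012 on the plus strand).
Hal: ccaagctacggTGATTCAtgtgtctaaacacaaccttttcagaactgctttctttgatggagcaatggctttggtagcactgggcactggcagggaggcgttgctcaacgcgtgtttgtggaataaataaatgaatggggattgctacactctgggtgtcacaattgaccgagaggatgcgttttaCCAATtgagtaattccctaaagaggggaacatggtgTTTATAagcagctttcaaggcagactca
Slc4a8: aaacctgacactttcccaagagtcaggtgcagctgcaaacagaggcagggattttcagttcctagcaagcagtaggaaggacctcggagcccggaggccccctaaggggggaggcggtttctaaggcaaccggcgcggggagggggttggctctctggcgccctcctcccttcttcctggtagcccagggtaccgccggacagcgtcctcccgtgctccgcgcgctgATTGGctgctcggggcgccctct
Strip2: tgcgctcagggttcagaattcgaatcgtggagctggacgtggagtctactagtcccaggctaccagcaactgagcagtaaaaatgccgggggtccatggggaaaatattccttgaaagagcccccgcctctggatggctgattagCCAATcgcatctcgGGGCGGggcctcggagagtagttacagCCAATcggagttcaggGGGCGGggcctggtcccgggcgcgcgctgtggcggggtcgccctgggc
The MHCIIhi-biased genes are Igfbp5 (chr1:72874866-72875115 on the minus strand), Igfbp4 (chr11:99040994-99041243 on the plus strand) and Krt5 (chr15:101712906-101713155 on the minus strand).
Igfbp5: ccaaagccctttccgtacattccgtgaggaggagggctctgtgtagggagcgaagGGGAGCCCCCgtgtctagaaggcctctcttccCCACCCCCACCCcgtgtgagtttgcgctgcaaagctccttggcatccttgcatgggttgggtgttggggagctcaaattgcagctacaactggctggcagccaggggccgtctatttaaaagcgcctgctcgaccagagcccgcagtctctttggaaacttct
Igfbp4: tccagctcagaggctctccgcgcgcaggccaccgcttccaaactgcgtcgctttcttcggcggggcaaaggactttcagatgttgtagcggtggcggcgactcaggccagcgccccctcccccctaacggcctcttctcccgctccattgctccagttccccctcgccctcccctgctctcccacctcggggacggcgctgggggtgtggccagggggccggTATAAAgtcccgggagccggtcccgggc
Krt5: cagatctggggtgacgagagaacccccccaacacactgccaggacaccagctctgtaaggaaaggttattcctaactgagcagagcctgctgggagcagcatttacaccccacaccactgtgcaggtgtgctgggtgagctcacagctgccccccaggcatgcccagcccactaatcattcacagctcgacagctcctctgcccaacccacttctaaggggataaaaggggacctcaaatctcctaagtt

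In these windows Hal held 1 match each to AP-1, the TATA box and the CCAAT box, and Slc4a8 1 to the CCAAT box. Strip2 held 2 GC boxes and 2 CCAAT boxes, Igfbp5 2 KLF motifs and 1 NF-kB motif that do not overlap each other, Igfbp4 1 TATA box and Krt5 none of the 8 motifs. For scale, the ETS letters were found in 19.6% of the 12471 promoters of tested genes in the table, the KLF letters in 33.7%, the GC box in 54.6%, AP-1 in 5.17%, NF-kB in 22.7%, the octamer in 1.43%, the TATA box in 7.95% and the CCAAT box in 35.9%. The table covers 73.3% of the genes tested, 282 of the 402 and 266 of the 381 called genes, which is too few for a comparison of motif shares between the classes, so none is given.

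In 41 of the 783 called genes the Tspan8 difference was called in opposite directions at the 2 MHCII levels, and Slc4a8 and Boc above are among them. Opposite calls themselves make a large interaction, so this count describes the called genes and adds no support. Spock1, a secreted proteoglycan, was measured at 7.58 and 10.6 CPM in Tspan8negMHCIIlo, 73 and 67.2 in Tspan8negMHCIIhi, 28 and 19.2 in Tspan8posMHCIIlo and 14.3 and 11.8 in Tspan8posMHCIIhi. It was higher in Tspan8pos cells within MHCIIlo and lower within MHCIIhi, for an interaction of 3.71 ± 0.34 (SE, edgeR adjusted p = 0.000238). Smyd1, a histone methyltransferase of muscle, had 5.06 and 5.19 CPM in Tspan8negMHCIIlo, 12.9 and 14.2 in Tspan8negMHCIIhi, 18.7 and 27 in Tspan8posMHCIIlo and 3.58 and 3.66 in Tspan8posMHCIIhi, so that the highest libraries were in Tspan8posMHCIIlo and the lowest in Tspan8posMHCIIhi, with an interaction of 4.09 ± 0.43 (SE, edgeR adjusted p = 0.000364). It overlaps several genes on the opposite strand, Krcc1 among them, and its count is uncertain. Tmprss11d, an airway trypsin-like protease, and Dgkk, a diacylglycerol kinase, were crossed in the same sense, with interactions of 3.95 ± 0.55 (SE, edgeR adjusted p = 0.0015) and 3.46 ± 0.52 (SE, edgeR adjusted p = 0.00221).

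Peaks in Tspan8posMHCIIlo included genes of several lineages. Hmx3, a homeobox factor of the inner ear, was measured at 1.97 and 3.54 CPM in Tspan8negMHCIIlo, 8.94 and 5.38 in Tspan8negMHCIIhi, 42.9 and 33.2 in Tspan8posMHCIIlo and 2.99 and 6.3 in Tspan8posMHCIIhi, with an interaction of 4.33 ± 0.61 (SE, edgeR adjusted p = 0.00157), and overlaps Fgfr2 on the opposite strand. Siglecf, a sialic acid binding receptor of Tuft cells and eosinophils, had 1.12 and 1.89 CPM in Tspan8negMHCIIlo, 2.7 and 2.31 in Tspan8negMHCIIhi, 34.1 and 27.8 in Tspan8posMHCIIlo and 4.38 and 6.1 in Tspan8posMHCIIhi and an interaction of 3.23 ± 0.56 (SE, edgeR adjusted p = 0.00446). The 2 Tspan8posMHCIIlo libraries of both genes stood above the other 6. Cubn, the endocytic receptor cubilin, and Spdl1, a spindle protein, shared the shape with interactions of 3.21 ± 0.50 and 3.46 ± 0.35 (SE, edgeR adjusted p = 0.00267 and 0.000317).

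Peaks in Tspan8negMHCIIhi, the subset with the highest Aire transcript, were made in part by genes of other tissues. Myh3, embryonic skeletal myosin heavy chain, lay at 1.4 and 1.18 CPM in Tspan8negMHCIIlo, 47.4 and 52.8 in Tspan8negMHCIIhi, 2.75 and 4.37 in Tspan8posMHCIIlo and 8.17 and 9.96 in Tspan8posMHCIIhi, and its interaction was 4.06 ± 0.47 (SE, edgeR adjusted p = 0.000535). Robo3, an axon guidance receptor, had 1.69 and 1.18 CPM in Tspan8negMHCIIlo, 70.3 and 66.8 in Tspan8negMHCIIhi, 1.1 and 2.87 in Tspan8posMHCIIlo and 9.96 and 12.4 in Tspan8posMHCIIhi and an interaction of 3.39 ± 0.53 (SE, edgeR adjusted p = 0.00255). Both genes stayed at or under 4.37 CPM in MHCIIlo cells of either Tspan8 class. The remaining leaders were Nkx2-6, a cardiac and pharyngeal homeobox factor (3.74 ± 0.72; edgeR adjusted p = 0.00789), and Hmcn2, a basement membrane protein (3.03 ± 0.37; edgeR adjusted p = 0.000777). Aire itself, the regulator of promiscuous expression, was measured at 212 and 205 CPM in Tspan8negMHCIIlo, 2660 and 2480 in Tspan8negMHCIIhi, 14.8 and 35.4 in Tspan8posMHCIIlo and 402 and 541 in Tspan8posMHCIIhi, with an interaction of -0.47 ± 0.36 (SE, edgeR adjusted p = 0.45), so its lower level in Tspan8pos cells was not called different between the MHCII levels.

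Peaks in Tspan8negMHCIIlo were led by Acta1, skeletal muscle actin, with 52.2 and 39.8 CPM in Tspan8negMHCIIlo, 1.66 and 3.08 in Tspan8negMHCIIhi, 3.3 and 4.91 in Tspan8posMHCIIlo and 5.58 and 6.71 in Tspan8posMHCIIhi and an interaction of -4.67 ± 0.49 (SE, edgeR adjusted p = 0.00038). Bnc1, a zinc finger protein of basal keratinocytes, was measured at 23.6 and 18.4 CPM in Tspan8negMHCIIlo, 0.416 and 0.897 in Tspan8negMHCIIhi, 2.2 and 1.77 in Tspan8posMHCIIlo and 2.19 and 1.02 in Tspan8posMHCIIhi, and its interaction was -4.62 ± 0.78 (SE, edgeR adjusted p = 0.004). Its 6 libraries outside Tspan8negMHCIIlo were all at or under 2.2 CPM. Sult5a1, a sulfotransferase (-4.62 ± 0.46; edgeR adjusted p = 0.000317), Syde1, a GTPase-activating protein (-4.53 ± 0.89; edgeR adjusted p = 0.00873), and Zc3hav1l, a zinc finger protein (-4.49 ± 0.68; edgeR adjusted p = 0.0024), followed. Acta1 and Sult5a1 are overlapped by the same predicted gene, and Bnc1 and Syde1 by others, all on the opposite strand.

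The 7 genes with a peak in Tspan8posMHCIIhi included Ttr, transthyretin of liver and choroid plexus, which lay at 3.65 and 3.77 CPM in Tspan8negMHCIIlo, 7.9 and 11.7 in Tspan8negMHCIIhi, 5.5 and 3.14 in Tspan8posMHCIIlo and 63.9 and 82.5 in Tspan8posMHCIIhi. Its interaction was -2.86 ± 0.49 (SE, edgeR adjusted p = 0.00423), and both Tspan8posMHCIIhi libraries were above the other 6. Cdkn1c, a cyclin-dependent kinase inhibitor, had 94.9 and 102 CPM in Tspan8negMHCIIlo, 82.8 and 87.5 in Tspan8negMHCIIhi, 59.4 and 63.5 in Tspan8posMHCIIlo and 192 and 238 in Tspan8posMHCIIhi and an interaction of -2.0 ± 0.21 (SE, edgeR adjusted p = 0.00036). Naip6, an inflammasome sensor with near-identical paralogs, and Plin2, a lipid droplet protein, had interactions of -2.10 and -1.65 (edgeR adjusted p = 0.00636 and 0.00266).

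Troughs in Tspan8negMHCIIhi beyond Krt5 and Runx1 included Nod1, a sensor of bacterial peptidoglycan, with 18 and 21.7 CPM in Tspan8negMHCIIlo, 0.416 and 1.15 in Tspan8negMHCIIhi, 15.4 and 18.2 in Tspan8posMHCIIlo and 7.17 and 9.35 in Tspan8posMHCIIhi and an interaction of -3.45 ± 0.53 (SE, edgeR adjusted p = 0.0025). Casp12, a caspase, had 20.2 and 13.4 CPM in Tspan8negMHCIIlo, 1.46 and 1.67 in Tspan8negMHCIIhi, 7.7 and 10.9 in Tspan8posMHCIIlo and 13.3 and 12 in Tspan8posMHCIIhi and an interaction of -3.77 ± 0.50 (SE, edgeR adjusted p = 0.00109). The 2 Tspan8negMHCIIhi libraries were at or under 1.67 CPM for both genes. Rgma, a repulsive guidance molecule, Sobp, a sine oculis binding protein homologue, and F3, tissue factor of blood clotting, had interactions of -3.47, -3.48 and -3.19 (edgeR adjusted p = 0.000442, 0.00687 and 0.00322). Troughs in Tspan8posMHCIIlo included Matn1, a cartilage matrix protein, at 41.3 and 28.8 CPM in Tspan8negMHCIIlo, 22.3 and 16.2 in Tspan8negMHCIIhi, 1.1 and 1.77 in Tspan8posMHCIIlo and 6.17 and 6.91 in Tspan8posMHCIIhi with an interaction of -2.88 ± 0.49 (SE, edgeR adjusted p = 0.00418), and Rgs5, a regulator of G protein signalling known from pericytes, at 444 and 253 CPM in Tspan8negMHCIIlo, 299 and 317 in Tspan8negMHCIIhi, 72 and 41 in Tspan8posMHCIIlo and 289 and 203 in Tspan8posMHCIIhi with an interaction of -2.37 ± 0.42 (SE, edgeR adjusted p = 0.005). Igf2, an imprinted growth factor that shares its locus with other transcripts, Mpp1, a membrane scaffold protein, and Ly6c2 had interactions of -2.70, -2.21 and -2.89 (edgeR adjusted p = 0.00495, 0.0024 and 0.00242). Adgrb2, a brain adhesion receptor, had a trough in Tspan8posMHCIIhi and an interaction of 2.12 ± 0.33 (SE, edgeR adjusted p = 0.00244). Hsd17b14, a steroid dehydrogenase, Klk5, Klk6 and Tmprss11d joined Psca as the largest resolved interactions with a trough in Tspan8negMHCIIlo, and Hsd17b14 was measured at 1.69 and 0.707 CPM in Tspan8negMHCIIlo, 29.9 and 29 in Tspan8negMHCIIhi, 31.3 and 44.4 in Tspan8posMHCIIlo and 42.8 and 51.6 in Tspan8posMHCIIhi with 4.36 ± 0.44 (SE, edgeR adjusted p = 0.000317).

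Gene lists were then read against all genes tested, of which 2.36% were MHCIIlo-biased and 2.24% MHCIIhi-biased and whose median interaction was -0.05. List medians take in members averaging at most 3 counts in a subset, whose folds are not resolved. Over resolved members alone the median was 1.00 for keratins (29 of 44) and 1.22 for the cornified envelope list (24 of 42). It was 0.84 for goblet and mucin genes (17 of 21), -0.47 for muscle genes (13 of 21) and -0.69 for chemokines (25 of 31). Of 4 milk protein genes 2 were resolved. In all 149 list members were called, against 246 without replicate 2 of Tspan8negMHCIIlo, 60 and 58 without replicate 1 and 2 of Tspan8negMHCIIhi, 54 and 57 without those of Tspan8posMHCIIhi and 65 and 41 without those of Tspan8posMHCIIlo, so lists with few calls often had none in these fits. Of the 24 tested skin barrier enzymes and lipid genes, 8 (33.3%) were MHCIIlo-biased, none was MHCIIhi-biased, and the median interaction was 1.34. Besides Hal these were Padi1, Alox12b, Tgm5, Casp14, Asprv1, Tgm3 and Dgat2, enzymes that deiminate, cross-link, cleave and lipidate the cornified layer. Alox12b, a lipoxygenase of the ceramide barrier, was measured at 3.09 and 6.37 CPM in Tspan8negMHCIIlo, 24.1 and 29.2 in Tspan8negMHCIIhi, 137 and 143 in Tspan8posMHCIIlo and 124 and 95.5 in Tspan8posMHCIIhi with an interaction of 2.82 ± 0.35 (SE, edgeR adjusted p = 0.000777), and Tgm5, a transglutaminase, had 2.34 ± 0.33 (SE, edgeR adjusted p = 0.00172). Padi1, a peptidylarginine deiminase, lay at 0.562 and 2.12 CPM in Tspan8negMHCIIlo, 12.7 and 14.5 in Tspan8negMHCIIhi, 14.8 and 18.7 in Tspan8posMHCIIlo and 9.96 and 19.1 in Tspan8posMHCIIhi, low in Tspan8negMHCIIlo alone. In all, 22 of the 24 genes were called higher in Tspan8pos cells within MHCIIlo and 19 within MHCIIhi. The 8 calls were 8 and 9 without replicate 1 and 2 of Tspan8negMHCIIlo, 4 and 3 without those of Tspan8negMHCIIhi, 2 and 3 without those of Tspan8posMHCIIhi and 3 and 2 without those of Tspan8posMHCIIlo.

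**Figure D4:**
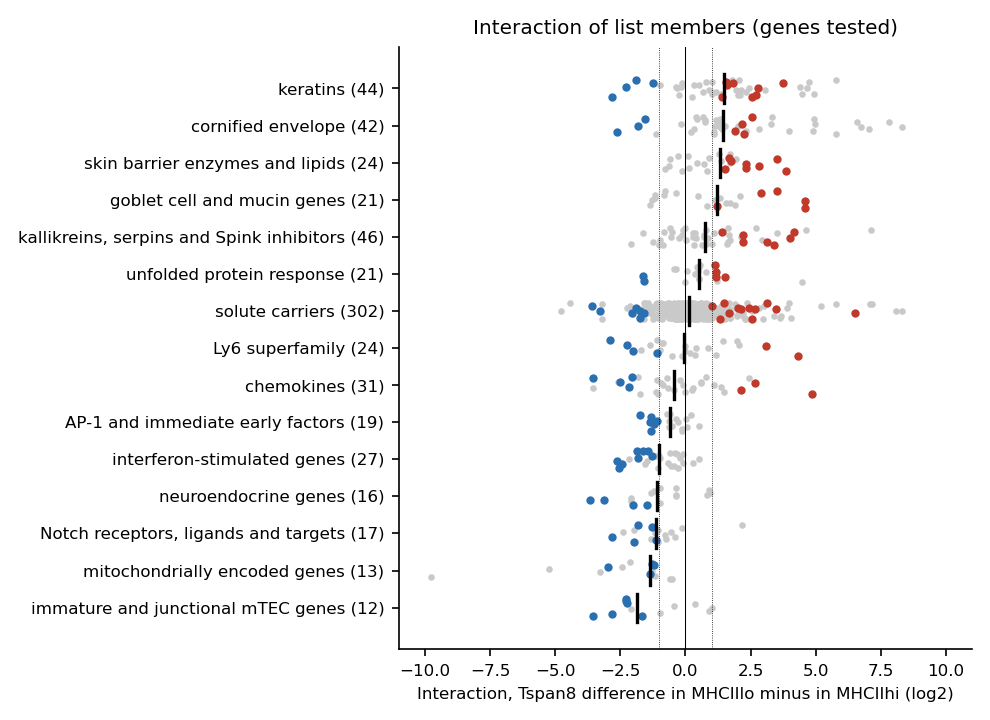
Interaction (log2, horizontal axis) of the tested members of the 15 lists with at least 4 called members in a direction, 1 point a gene, with called genes in red (higher ratio in MHCIIlo) or blue (higher ratio in MHCIIhi) and the others in grey; a black bar marks the median of the list and the number tested is in parentheses. The medians run from -1.87 for the immature and junctional mTEC genes to 1.48 for the keratins, and grey points beyond the dotted lines at 1 and -1 are genes that were not called. Points and medians include members averaging at most 3 counts in a subset, whose folds are not resolved.

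Kallikreins, serpins and Spink inhibitors, the proteases of desquamation and their inhibitors, had 7 MHCIIlo-biased members of 46 tested (15.2%), no MHCIIhi-biased member and a median of 0.74. Next to Klk7 they were Klk5, Klk6, Klk13, Klk14, Serpinb12 and Serpinb2. Klk6 was measured at 0.281 and 4.72 CPM in Tspan8negMHCIIlo, 15 and 21.7 in Tspan8negMHCIIhi, 213 and 194 in Tspan8posMHCIIlo and 88.4 and 84.5 in Tspan8posMHCIIhi with an interaction of 4.02 ± 0.56 (SE, edgeR adjusted p = 0.00149), and Klk5 and Klk14 had 4.15 and 3.13 (edgeR adjusted p = 0.000485 and 0.000441). The count was 3 without replicate 2 of Tspan8posMHCIIlo and between 5 and 10 without any other library.

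The keratins were split. Of 44 tested, 8 were MHCIIlo-biased (Krt4, Krt16, Krt20, Krt75, Krt76, Krt77, Krt79 and Krt222) and 4 MHCIIhi-biased (Krt5, Krt7, Krt14 and Krt19), with a median interaction of 1.48. Krt14, the partner of Krt5 in basal cells, lay at 927 and 558 CPM in Tspan8negMHCIIlo, 182 and 151 in Tspan8negMHCIIhi, 242 and 172 in Tspan8posMHCIIlo and 225 and 226 in Tspan8posMHCIIhi with an interaction of -2.29 ± 0.33 (SE, edgeR adjusted p = 0.00174). Krt75, a keratin of hair follicle and tongue, was measured at 3.37 and 4.01 CPM in Tspan8negMHCIIlo, 14.8 and 12.7 in Tspan8negMHCIIhi, 214 and 154 in Tspan8posMHCIIlo and 101 and 92.2 in Tspan8posMHCIIhi, and its interaction was 2.78 ± 0.33 (SE, edgeR adjusted p = 0.00066). Krt4, of the suprabasal oesophagus, had 0.843 and 0.707 CPM in Tspan8negMHCIIlo, 18.5 and 20.9 in Tspan8negMHCIIhi, 42.9 and 46 in Tspan8posMHCIIlo and 94.6 and 71.7 in Tspan8posMHCIIhi, too few counts in Tspan8negMHCIIlo to resolve a fold. Krt76, of the palate, was highest in Tspan8negMHCIIhi with 2.53 and 1.65 CPM in Tspan8negMHCIIlo, 37.6 and 39.7 in Tspan8negMHCIIhi, 7.15 and 7.78 in Tspan8posMHCIIlo and 16.3 and 27.6 in Tspan8posMHCIIhi and an interaction of 2.69 ± 0.48 (SE, edgeR adjusted p = 0.00567). Krt10 and Ivl, markers of keratinized cells, were far higher in Tspan8pos cells at both MHCII levels (5.20 within MHCIIlo and 4.69 within MHCIIhi for Krt10, 5.34 within MHCIIlo and 5.13 within MHCIIhi for Ivl), and their interactions of 0.51 and 0.21 were not called (edgeR adjusted p = 0.331 and 0.796), that of Ivl turning negative in 4 of 17 alternative fits. The 8 MHCIIlo-biased keratins became 5 without replicate 2 of Tspan8negMHCIIhi, 4 without either replicate of Tspan8posMHCIIhi and 4 and 3 without those of Tspan8posMHCIIlo, and the 4 MHCIIhi-biased keratins became 2 without replicate 2 of Tspan8negMHCIIhi, replicate 1 of Tspan8posMHCIIhi or replicate 2 of Tspan8posMHCIIlo.

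Among 42 tested genes of the cornified envelope and epidermal differentiation complex 4 were MHCIIlo-biased (Cdsn, Crnn, Flg and Sprr1a), 3 MHCIIhi-biased (Sprr2a1, Sprr2a2 and Sprr2a3), and the median was 1.44. Cdsn, corneodesmosin, lay at 4.21 and 7.78 CPM in Tspan8negMHCIIlo, 12.5 and 11.8 in Tspan8negMHCIIhi, 359 and 341 in Tspan8posMHCIIlo and 141 and 151 in Tspan8posMHCIIhi, with an interaction of 2.24 ± 0.29 (SE, edgeR adjusted p = 0.00102). Sprr1a, a small proline-rich envelope precursor, was measured at 95.8 and 82.5 CPM in Tspan8negMHCIIlo, 289 and 260 in Tspan8negMHCIIhi, 2170 and 1480 in Tspan8posMHCIIlo and 1380 and 1100 in Tspan8posMHCIIhi with an interaction of 2.18 ± 0.27 (SE, edgeR adjusted p = 0.000795), and Crnn, cornulin, had 2.54 ± 0.50 (SE, edgeR adjusted p = 0.0086). The 3 Sprr2a genes are near-identical copies that share reads and count as 1 uncertain observation, for which Sprr2a3 gave 26.7 and 13.9 CPM in Tspan8negMHCIIlo, 4.99 and 4.74 in Tspan8negMHCIIhi, 39 and 32.8 in Tspan8posMHCIIlo and 55.8 and 50.4 in Tspan8posMHCIIhi and -2.63 ± 0.40 (SE, edgeR adjusted p = 0.00228). Without replicate 2 of Tspan8negMHCIIlo 11 members were MHCIIlo-biased, and without replicate 2 of Tspan8posMHCIIhi 2 were. The 3 Sprr2a calls were lost without either replicate of Tspan8negMHCIIhi, replicate 2 of Tspan8posMHCIIhi or replicate 2 of Tspan8posMHCIIlo, and the count was 1 without replicate 1 of Tspan8posMHCIIlo.

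Of 14 desmosome genes, which join neighbouring epithelial cells, 2 (14.3%) were MHCIIlo-biased, the paralogs Dsg1a and Dsg1b (1.35 and 1.76; edgeR adjusted p = 0.00671 and 0.00804), while the median of the list was -0.28. Of 23 claudins and tight junction genes 1 (4.35%) was MHCIIlo-biased, Cldn7 (1.18; edgeR adjusted p = 0.0091), with a median of 0.54.

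Goblet cell and mucin genes had 5 MHCIIlo-biased members of 21 (23.8%), none MHCIIhi-biased, and a median of 1.21. Muc5ac, the gel-forming mucin of airway and stomach, was measured at 3.93 and 11.6 CPM in Tspan8negMHCIIlo, 78.2 and 102 in Tspan8negMHCIIhi, 212 and 259 in Tspan8posMHCIIlo and 233 and 228 in Tspan8posMHCIIhi, with an interaction of 3.53 ± 0.40 (SE, edgeR adjusted p = 0.000497). Tff1, a trefoil peptide of the stomach, lay at 0.281 and 3.06 CPM in Tspan8negMHCIIlo, 11.4 and 17.2 in Tspan8negMHCIIhi, 94.5 and 97.7 in Tspan8posMHCIIlo and 106 and 102 in Tspan8posMHCIIhi and had 2.91 ± 0.54 (SE, edgeR adjusted p = 0.00628). Muc2 and Muc16 averaged at most 3 counts in Tspan8negMHCIIlo, with 1.4 and 0 CPM in Tspan8negMHCIIlo, 25.6 and 30.1 in Tspan8negMHCIIhi, 21.4 and 31.8 in Tspan8posMHCIIlo and 42.2 and 54 in Tspan8posMHCIIhi for Muc2, and their fitted folds are not resolved. Muc1, a transmembrane mucin, was the remaining member. The count was 1 without replicate 1 of Tspan8posMHCIIhi or replicate 2 of Tspan8posMHCIIlo, 2 without replicate 2 of Tspan8negMHCIIhi, replicate 2 of Tspan8posMHCIIhi or replicate 1 of Tspan8posMHCIIlo, and 10 without replicate 2 of Tspan8negMHCIIlo.

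The immature and junctional mTEC genes had 6 MHCIIhi-biased members of 12 tested (50%), no MHCIIlo-biased member and a median of -1.87. Besides Igfbp5, Krt5, Krt14 and Ccl21a these were Ly6a and Plet1, surface proteins of epithelial progenitors. Ly6a (Sca-1) was measured at 259 and 207 CPM in Tspan8negMHCIIlo, 70.7 and 95.2 in Tspan8negMHCIIhi, 332 and 290 in Tspan8posMHCIIlo and 527 and 537 in Tspan8posMHCIIhi, with an interaction of -2.26 ± 0.24 (SE, edgeR adjusted p = 0.000402). The members differed in where the Tspan8 difference lay, since Krt5 and Ly6a were called higher in Tspan8pos cells within MHCIIhi, while Ccl21a and Krt14 were called lower in Tspan8pos cells within MHCIIlo. The count was 4 to 8 when any 1 library was left out.

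Basal adhesion genes, the integrins, laminins and collagens that fix basal cells to their membrane, had 3 MHCIIhi-biased members of 19 and a median of -0.67. Lamb3, a chain of the anchoring laminin of basal cells, lay at 271 and 192 CPM in Tspan8negMHCIIlo, 38.5 and 34.7 in Tspan8negMHCIIhi, 58.3 and 31.8 in Tspan8posMHCIIlo and 51.4 and 48.6 in Tspan8posMHCIIhi with an interaction of -2.90 ± 0.36 (SE, edgeR adjusted p = 0.000807), Bcam, a laminin receptor, had -1.98 and Lama5, a laminin chain, -1.27 (edgeR adjusted p = 0.00191 and 0.00416). Lamb3 overlaps several genes on the opposite strand. Without replicate 1 and 2 of Tspan8negMHCIIlo 5 and 10 of the 19 were called, and 1 or 2 without any library of the other subsets.

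**Figure D5:**
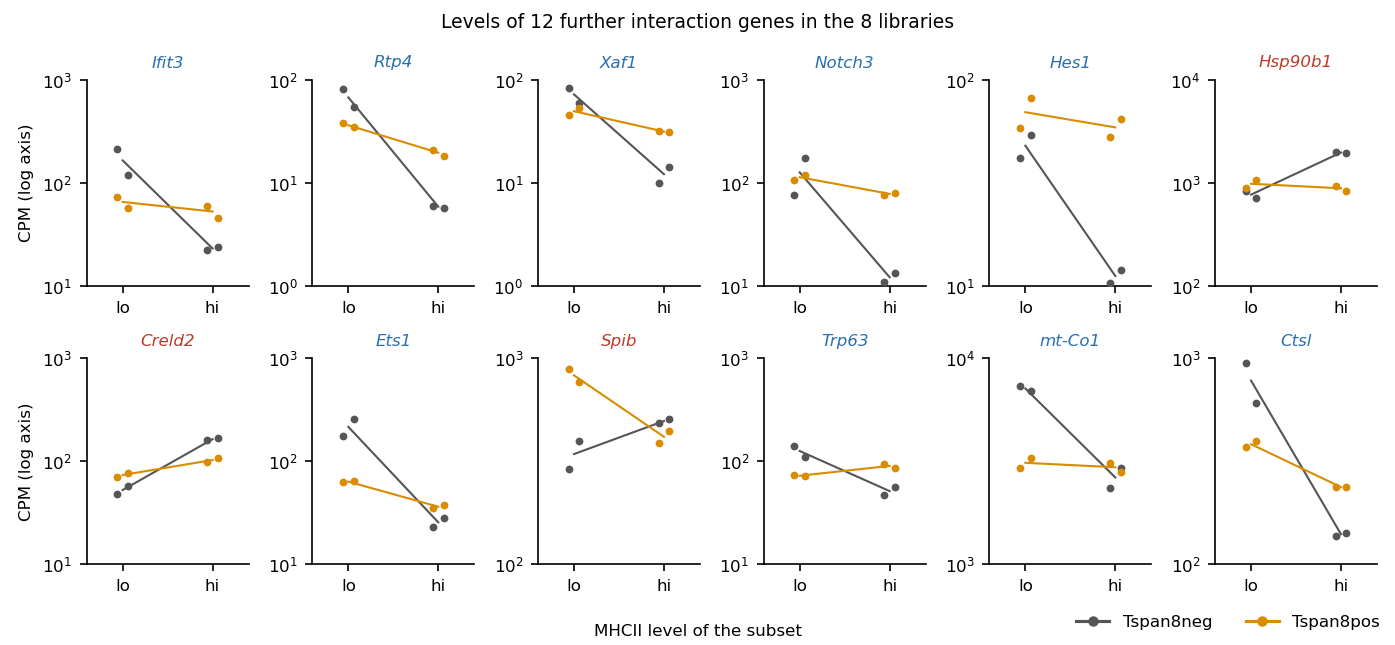
CPM (log axis) of 12 list members in the 8 libraries against the MHCII level, with 1 point a library, lines joining the subset means, Tspan8neg in grey and Tspan8pos in orange; red titles mark genes with a higher Tspan8 ratio in MHCIIlo and blue titles genes with a higher ratio in MHCIIhi. For Ifit3, Notch3, Ets1 and mt-Co1 the Tspan8neg line falls more steeply from MHCIIlo to MHCIIhi than the Tspan8pos line, and for Hsp90b1 and Creld2 the Tspan8neg line rises more.

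Interferon-stimulated genes had 8 MHCIIhi-biased members of 27 (29.6%), no MHCIIlo-biased member, a median of -1.0, and 25 of 27 with a negative interaction. They were Ifit3, Rtp4, Mx2, Xaf1, Gbp2, Ddx58, Isg15 and Irf7, antiviral effectors, a sensor and a transcription factor of the pathway. Ifit3 was measured at 212 and 120 CPM in Tspan8negMHCIIlo, 22.3 and 24.1 in Tspan8negMHCIIhi, 73.7 and 57.5 in Tspan8posMHCIIlo and 60.1 and 45.9 in Tspan8posMHCIIhi, highest in Tspan8negMHCIIlo and lowest in Tspan8negMHCIIhi, with an interaction of -2.55 ± 0.37 (SE, edgeR adjusted p = 0.00173). Rtp4, which overlaps Masp1 on the opposite strand, lay at 80.9 and 54.7 CPM in Tspan8negMHCIIlo, 6.03 and 5.77 in Tspan8negMHCIIhi, 37.9 and 34.9 in Tspan8posMHCIIlo and 21.1 and 18.3 in Tspan8posMHCIIhi, with -2.64 ± 0.32 (SE, edgeR adjusted p = 0.000777), and Xaf1 and Mx2, the latter annotated as a polymorphic pseudogene, had -1.87 and -2.43 (edgeR adjusted p = 0.00344 and 0.00174). Within MHCIIlo 8 of the 27 were called lower in Tspan8pos cells, and within MHCIIhi 7 were called higher and 2 lower. The count rose to 10 and 14 without replicate 1 and 2 of Tspan8negMHCIIlo and was 1 to 3 without any other library. Thymocyte marker RNA was highest in the same Tspan8negMHCIIlo libraries, and its part in these values was not tested.

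Of 17 tested genes of the Notch pathway, in which ligands on one cell activate receptors on the next, 5 (29.4%) were MHCIIhi-biased, 12 were not called, and the median was -1.13. Notch3, a receptor, was measured at 77 and 177 CPM in Tspan8negMHCIIlo, 11 and 13.3 in Tspan8negMHCIIhi, 106 and 121 in Tspan8posMHCIIlo and 76.9 and 80.3 in Tspan8posMHCIIhi, low in Tspan8negMHCIIhi alone, and its interaction was -2.83 ± 0.44 (SE, edgeR adjusted p = 0.00262). Hes1, the repressor that Notch induces, lay at 41.9 and 54.2 CPM in Tspan8negMHCIIlo, 10.4 and 12 in Tspan8negMHCIIhi, 58.3 and 81.4 in Tspan8posMHCIIlo and 52.8 and 65 in Tspan8posMHCIIhi, with -1.81 ± 0.30 (SE, edgeR adjusted p = 0.00378). Dll1, a ligand, was instead high in Tspan8negMHCIIlo alone, with 75.8 and 60.8 CPM in Tspan8negMHCIIlo, 14.8 and 15.9 in Tspan8negMHCIIhi, 24.7 and 14.9 in Tspan8posMHCIIlo and 12.5 and 20.1 in Tspan8posMHCIIhi and -1.98 ± 0.39 (SE, edgeR adjusted p = 0.0091). Heyl, another target, and Jag2, another ligand, completed the called genes. None was called without replicate 1 or 2 of Tspan8negMHCIIhi, replicate 1 of Tspan8posMHCIIhi, or replicate 1 or 2 of Tspan8posMHCIIlo, 1 without replicate 2 of Tspan8posMHCIIhi, and 7 and 8 without replicate 1 and 2 of Tspan8negMHCIIlo.

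AP-1 and immediate early factors, which cells induce within a short time of a stimulus, had 6 MHCIIhi-biased members of 19 (31.6%), Fos, Jun, Fosl2, Atf3, Ier3 and Nr4a2, with a median of -0.61. Atf3 was measured at 2020 and 1370 CPM in Tspan8negMHCIIlo, 576 and 500 in Tspan8negMHCIIhi, 1330 and 1380 in Tspan8posMHCIIlo and 1030 and 1100 in Tspan8posMHCIIhi, with an interaction of -1.31 ± 0.24 (SE, edgeR adjusted p = 0.0057). Fosl2 and Ier3 shared its low point in Tspan8negMHCIIhi (-1.38 and -1.34; edgeR adjusted p = 0.00191 and 0.00625), whereas Nr4a2, an orphan nuclear receptor, was high in Tspan8negMHCIIlo alone (-1.73; edgeR adjusted p = 0.00472). The count was 0 without either replicate of Tspan8negMHCIIhi, 1 without either of Tspan8posMHCIIhi and 2 and 1 without replicate 1 and 2 of Tspan8posMHCIIlo.

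Among 24 Ets family factors 2 were MHCIIlo-biased, Spib and Etv3, and 1 MHCIIhi-biased, Ets1, with a median of -0.10. Ets1 was measured at 177 and 256 CPM in Tspan8negMHCIIlo, 22.9 and 28.3 in Tspan8negMHCIIhi, 63.2 and 63.9 in Tspan8posMHCIIlo and 35.1 and 37.6 in Tspan8posMHCIIhi, a peak in Tspan8negMHCIIlo with an interaction of -2.26 ± 0.28 (SE, edgeR adjusted p = 0.000767). Like the thymocyte marker sum, Ets1 was higher in replicate 2 of Tspan8negMHCIIlo than in replicate 1, and the part of thymocyte RNA in it was not tested. Spib, the factor of microfold cells, lay at 290 and 396 CPM in Tspan8negMHCIIlo, 486 and 506 in Tspan8negMHCIIhi, 883 and 769 in Tspan8posMHCIIlo and 387 and 445 in Tspan8posMHCIIhi, highest in Tspan8posMHCIIlo, with 1.52 ± 0.23 (SE, edgeR adjusted p = 0.00218). Etv3, a repressor, was low in Tspan8negMHCIIlo (1.08 ± 0.19 (SE, edgeR adjusted p = 0.00561)). Of 14 Kruppel-like factors 2 were MHCIIhi-biased, Klf3 and Klf13 (-1.15 and -1.14; edgeR adjusted p = 0.00871 and 0.00943), with a median of -0.63, and both overlap transcripts on the opposite strand. Epithelial differentiation factors (21 tested, median -0.13) had 2 MHCIIhi-biased members, Hes1 and Trp63, the basal cell regulator (-1.60 ± 0.23 (SE, edgeR adjusted p = 0.00174)), and 1 MHCIIlo-biased member, Grhl3, a regulator of barrier formation (1.47 ± 0.29 (SE, edgeR adjusted p = 0.00873)). Of 20 RANK, lymphotoxin receptor and NF-kB genes 2 were MHCIIlo-biased (median 0.42), Rel, an NF-kB subunit, and Tnfrsf11b, the RANKL decoy receptor osteoprotegerin (1.20 and 1.27; edgeR adjusted p = 0.00252 and 0.00628). Among 15 genes of Aire, Fezf2 and cofactors 1 was called, Deaf1, a regulator of peripheral antigens, which was MHCIIhi-biased (-1.42 ± 0.27 (SE, edgeR adjusted p = 0.0071)), with a median of -0.10. Of 17 alternative fits all called Ets1, while 4 did not call Spib or Trp63 and 6 did not call Etv3 or Tnfrsf11b. Hes1 and Rel were not called in 7, Deaf1 and Klf13 in 8, and Grhl3 and Klf3 in 9. DESeq2 was among the fits without Deaf1, and DESeq2 size factors among those without Klf3 and Klf13.

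Of 17 MHC class II presentation genes 3 were MHCIIhi-biased (17.6%, median -0.47). Ciita, the master activator of the pathway, was measured at 129 and 131 CPM in Tspan8negMHCIIlo, 347 and 359 in Tspan8negMHCIIhi, 19.2 and 18.6 in Tspan8posMHCIIlo and 100 and 119 in Tspan8posMHCIIhi, with an interaction of -1.10 ± 0.20 (SE, edgeR adjusted p = 0.00628), and H2-DMb2, a peptide loading chain, had -1.15 ± 0.23 (SE, edgeR adjusted p = 0.00943). Both were called lower in Tspan8pos cells at both MHCII levels, and on the log2 scale more so within MHCIIlo. On the linear scale the drop was larger within MHCIIhi, with a difference of differences of 132 CPM for Ciita and 309 for H2-DMb2. Ctsl, a lysosomal protease that processes invariant chain in thymic epithelium, lay at 953 and 605 CPM in Tspan8negMHCIIlo, 138 and 142 in Tspan8negMHCIIhi, 370 and 396 in Tspan8posMHCIIlo and 237 and 237 in Tspan8posMHCIIhi, a peak in Tspan8negMHCIIlo (-1.78 ± 0.26 (SE, edgeR adjusted p = 0.00198)). MHCII protein set one of the gates, so these differences are bound to the sort. The count was 2 and 4 without replicate 1 and 2 of Tspan8negMHCIIlo and 0 without any other library. None of 18 MHC class I and immunoproteasome genes was called (median 0.21). Of 13 costimulatory and coinhibitory ligands 1 was MHCIIlo-biased (median 0.21), Cd80, with 15.4 and 6.84 CPM in Tspan8negMHCIIlo, 162 and 143 in Tspan8negMHCIIhi, 14.8 and 14.1 in Tspan8posMHCIIlo and 56.4 and 45.5 in Tspan8posMHCIIhi and an interaction of 1.97 ± 0.39 (SE, edgeR adjusted p = 0.00873). The interaction of Cd80 ran from 1.45 to 2.61 over 17 alternative fits and was not called in 7 of them. These were the fit with counts thinned to the smallest library and those without any 1 library of Tspan8negMHCIIhi, Tspan8posMHCIIhi or Tspan8posMHCIIlo.

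The unfolded protein response, which adjusts the folding capacity of the endoplasmic reticulum, had calls in both directions. Of 21 genes 4 were MHCIIlo-biased, the chaperones Hsp90b1, Hspa5 and Calr and the secreted Creld2, and 2 MHCIIhi-biased, the stress sensor Ern1 and Edem1 of protein disposal, with a median of 0.50. Hsp90b1 was measured at 829 and 717 CPM in Tspan8negMHCIIlo, 2000 and 1970 in Tspan8negMHCIIhi, 888 and 1080 in Tspan8posMHCIIlo and 935 and 846 in Tspan8posMHCIIhi, a peak in Tspan8negMHCIIhi with an interaction of 1.51 ± 0.19 (SE, edgeR adjusted p = 0.000884). Ern1 lay at 85.7 and 78 CPM in Tspan8negMHCIIlo, 32.9 and 30.4 in Tspan8negMHCIIhi, 65.4 and 69.9 in Tspan8posMHCIIlo and 90.2 and 72.7 in Tspan8posMHCIIhi, a trough in the same subset, with -1.64 ± 0.22 (SE, edgeR adjusted p = 0.00121). Creld2 and Edem1 had 1.16 and -1.59 (edgeR adjusted p = 0.00446 and 0.00305). The 4 MHCIIlo-biased calls became 1 and 2 without replicate 1 and 2 of Tspan8posMHCIIhi, and 2 without replicate 2 of Tspan8posMHCIIlo.

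Genes encoded by mitochondrial DNA had 4 MHCIIhi-biased members of 13 (30.8%), all 13 interactions were negative, and the median was -1.36. mt-Co1, a cytochrome oxidase subunit, was measured at 7340 and 6930 CPM in Tspan8negMHCIIlo, 2340 and 2930 in Tspan8negMHCIIhi, 2930 and 3300 in Tspan8posMHCIIlo and 3120 and 2800 in Tspan8posMHCIIhi, between 2340 and 3300 CPM in the 6 libraries outside Tspan8negMHCIIlo, with an interaction of -1.36 ± 0.19 (SE, edgeR adjusted p = 0.00135). mt-Nd1 and mt-Nd4, subunits of complex I, had -1.27 and -1.22, and mt-Atp8, whose reading frame overlaps mt-Atp6, -2.96 (edgeR adjusted p = 0.00331, 0.00609 and 0.0057). None of the 76 tested nuclear genes of oxidative phosphorylation was called, and their median was 0.00. The mitochondrial share of all counts given above moves with this list by construction, and its part in the other results was not tested. The count was 7 without replicate 2 of Tspan8negMHCIIlo, 1 without replicate 1 of Tspan8negMHCIIhi, Tspan8posMHCIIhi or Tspan8posMHCIIlo, and 2 without replicate 2 of Tspan8posMHCIIhi or Tspan8posMHCIIlo.

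Other cell state lists held few calls. Cell cycle genes had 2 MHCIIhi-biased members of 30 (median -0.60), the replication helicase subunits Mcm6 and Mcm7 (-1.50 and -1.25; edgeR adjusted p = 0.00446 and 0.00801), although 28 of the 30 were called lower in Tspan8pos cells within MHCIIlo and 25 within MHCIIhi. Of 18 Bcl2 family genes 1 was called (median 0.28), Bcl2l1, the survival factor Bcl-xL, low in Tspan8negMHCIIlo with 30.1 and 43.4 CPM in Tspan8negMHCIIlo, 140 and 145 in Tspan8negMHCIIhi, 97.3 and 96.2 in Tspan8posMHCIIlo and 113 and 122 in Tspan8posMHCIIhi and 1.66 ± 0.24 (SE, edgeR adjusted p = 0.00167). None of 76 cytoplasmic ribosomal protein genes (median -0.26) or 22 cholesterol synthesis genes (median 0.10) was called.

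Of the lineages that mTECs take on, neuroendocrine genes had 4 MHCIIhi-biased members of 16 (25%, median -1.11). Chga, chromogranin A of secretory granules, was measured at 490 and 637 CPM in Tspan8negMHCIIlo, 69.5 and 83.7 in Tspan8negMHCIIhi, 48.4 and 43.5 in Tspan8posMHCIIlo and 36.8 and 71.3 in Tspan8posMHCIIhi, highest in the 2 Tspan8negMHCIIlo libraries, and its interaction was -3.12 ± 0.37 (SE, edgeR adjusted p = 0.000674). Scg5 and Stxbp5l, of granule processing and release, had -1.47 and -3.66 (edgeR adjusted p = 0.0091 and 0.00666). The count was 1 or 2 without any 1 library of the 3 other subsets, the lowest without replicate 2 of Tspan8posMHCIIlo, and 4 without either of Tspan8negMHCIIlo.

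Tuft genes were called higher in Tspan8pos cells in 23 of 26 members within MHCIIlo and in 23 within MHCIIhi, and only Siglecf and Gnb3 were called in the interaction, in opposite directions (median -0.14). Gnb3, a G protein subunit of taste transduction, was measured at 237 and 320 CPM in Tspan8negMHCIIlo, 20.4 and 23.7 in Tspan8negMHCIIhi, 366 and 356 in Tspan8posMHCIIlo and 69.3 and 91.2 in Tspan8posMHCIIhi, a trough in Tspan8negMHCIIhi with -1.48 ± 0.26 (SE, edgeR adjusted p = 0.00506). Microfold genes had 2 MHCIIlo-biased members of 10 (median 0.13), Spib and Tnfrsf11b given above. Enterohepatic genes had 1 in each direction of 17 (median 0.12), Ttr and Cdx1, an intestinal homeobox factor with a peak in Tspan8negMHCIIhi at 55.9 and 57.3 CPM in Tspan8negMHCIIlo, 283 and 287 in Tspan8negMHCIIhi, 77 and 57.5 in Tspan8posMHCIIlo and 103 and 115 in Tspan8posMHCIIhi and 1.61 ± 0.22 (SE, edgeR adjusted p = 0.00149). Ciliated cell genes had 2 MHCIIlo-biased members of 19 (median 0.05), the axonemal dynein genes Dnah5 and Dnaic2, which peaked in different subsets, Dnah5 in Tspan8posMHCIIlo (2.35 ± 0.37 (SE, edgeR adjusted p = 0.00282)) and Dnaic2 in Tspan8negMHCIIhi (2.11 ± 0.36 (SE, edgeR adjusted p = 0.00423)). Muscle genes had 1 in each direction of 21 (median -1.27), Myh3 and Acta1 described above. None of 10 ionocyte genes was called, with a median of 2.84 over all 10 and of 0.42 over the 5 with more than 3 counts in every subset.

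Among tissue antigens outside these lineages, milk protein genes had 2 MHCIIlo-biased members of 4 (50%, median 2.44). Csn2, beta-casein, was measured at 30.1 and 53.8 CPM in Tspan8negMHCIIlo, 682 and 847 in Tspan8negMHCIIhi, 84.1 and 94.5 in Tspan8posMHCIIlo and 238 and 254 in Tspan8posMHCIIhi, highest in Tspan8negMHCIIhi with an interaction of 2.73 ± 0.31 (SE, edgeR adjusted p = 0.000534), and Csn1s1 had no library above 0.281 CPM in Tspan8negMHCIIlo and 7.49 and 9.36 in Tspan8negMHCIIhi. Of 16 autoimmune target and tissue antigen genes 1 was called (6.25%, median 0.85), Mag, the myelin-associated glycoprotein, with 9.27 and 12.5 CPM in Tspan8negMHCIIlo, 11.2 and 8.46 in Tspan8negMHCIIhi, 80.8 and 63.1 in Tspan8posMHCIIlo and 11.9 and 16.5 in Tspan8posMHCIIhi and 2.15 ± 0.37 (SE, edgeR adjusted p = 0.00429).

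Among secreted signals, 3 of 31 chemokines were MHCIIlo-biased (Cxcl2, Cxcl3 and Cxcl13) and 4 MHCIIhi-biased (Ccl21a, Ccl19, Ccl11 and Cxcl12), with a median of -0.43. Cxcl2, which draws neutrophils, lay at 18.5 and 27.3 CPM in Tspan8negMHCIIlo, 205 and 215 in Tspan8negMHCIIhi, 114 and 104 in Tspan8posMHCIIlo and 159 and 153 in Tspan8posMHCIIhi, with 2.66 ± 0.24 (SE, edgeR adjusted p = 0.000234). Cxcl13, which draws B cells, averaged at most 3 counts in Tspan8negMHCIIlo and lay at 23.7 and 26.3 CPM in Tspan8negMHCIIhi. Ccl11, an eosinophil attractant, was measured at 149 and 75 CPM in Tspan8negMHCIIlo, 8.11 and 9.61 in Tspan8negMHCIIhi, 26.9 and 24.4 in Tspan8posMHCIIlo and 13.9 and 9.14 in Tspan8posMHCIIhi, a peak in Tspan8negMHCIIlo with -2.50 ± 0.47 (SE, edgeR adjusted p = 0.0071). The 4 MHCIIhi-biased chemokines became 6 without either replicate of Tspan8negMHCIIlo, 2 without replicate 1 of Tspan8posMHCIIlo and 1 without either of Tspan8negMHCIIhi, replicate 2 of Tspan8posMHCIIhi or replicate 2 of Tspan8posMHCIIlo. The IL-1 family had 2 MHCIIlo-biased members of 10 (median 0.45), Il1rn, the receptor antagonist, with 56.2 and 41.5 CPM in Tspan8negMHCIIlo, 190 and 225 in Tspan8negMHCIIhi, 397 and 339 in Tspan8posMHCIIlo and 619 and 440 in Tspan8posMHCIIhi and 1.56 ± 0.28 (SE, edgeR adjusted p = 0.00562), and Il1f10, which had no count in Tspan8negMHCIIlo and 14.8 and 14.5 CPM in Tspan8posMHCIIlo.

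Of 24 Ly6 superfamily genes 2 were MHCIIlo-biased (Psca and Lypd2) and 4 MHCIIhi-biased (Ly6a, Ly6c1, Ly6c2 and Ly6e), with a median of -0.06. Lypd2 was measured at 1.4 and 1.89 CPM in Tspan8negMHCIIlo, 22.7 and 32.8 in Tspan8negMHCIIhi, 65.4 and 55.4 in Tspan8posMHCIIlo and 110 and 124 in Tspan8posMHCIIhi, low in Tspan8negMHCIIlo, with 3.08 ± 0.39 (SE, edgeR adjusted p = 0.000884), and the Ly6c genes are close paralogs. The 4 MHCIIhi-biased members became 1 without either replicate of Tspan8negMHCIIhi or Tspan8posMHCIIhi or replicate 2 of Tspan8posMHCIIlo. Tetraspanins, the family of Tspan8, had 2 MHCIIhi-biased members of 28 (median -0.19), Tspan1 at 54.8 and 72.6 CPM in Tspan8negMHCIIlo, 17.3 and 27.6 in Tspan8negMHCIIhi, 254 and 294 in Tspan8posMHCIIlo and 280 and 289 in Tspan8posMHCIIhi with -1.54 ± 0.29 (SE, edgeR adjusted p = 0.00719), and Tspan9 (-2.21 ± 0.35 (SE, edgeR adjusted p = 0.00268)). Of 19 adhesion G protein-coupled receptors 3 were MHCIIlo-biased, Adgrg6, Adgrf3 (2.70 ± 0.52 (SE, edgeR adjusted p = 0.00772)) and Adgrb2, and 1 MHCIIhi-biased, Adgrg1 (-1.81 ± 0.27 (SE, edgeR adjusted p = 0.00217)), with a median of 0.20. Ephrins and their receptors had 1 MHCIIlo-biased member of 22 (median 0.14), Epha8, which had no count in Tspan8negMHCIIlo and 12.3 and 9.23 CPM in Tspan8negMHCIIhi. Of 302 solute carriers 12 (3.97%) were MHCIIlo-biased and 7 (2.32%) MHCIIhi-biased, close to all genes tested, with a median of 0.13. After Slc4a8 the resolved values included Slc5a8, a monocarboxylate carrier of gut (3.47 ± 0.37 (SE, edgeR adjusted p = 0.000416)), Slc38a4, an amino acid carrier (-3.59 ± 0.70 (SE, edgeR adjusted p = 0.00837)), and Slc27a3, a fatty acid transport protein (-3.30 ± 0.37 (SE, edgeR adjusted p = 0.000485)), and Slc36a2 had at most 0.236 CPM in Tspan8negMHCIIlo and 7.49 and 11.2 in Tspan8negMHCIIhi.

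Markers of cells that the sort should have removed were read beside these results. None of the 11 tested thymocyte markers was called, though all 11 interactions were negative, with a median of -2.34. Without replicate 1 of Tspan8negMHCIIlo 7 of them were called MHCIIhi-biased, and 7 with a replicate block. None of 7 B and plasma cell markers (median -0.08), 8 myeloid and dendritic cell markers (0.65), 9 fibroblast and endothelial markers (-0.15) or 5 erythroid markers (0.07) was called. Their summed levels ran over the 8 libraries from 26.5 to 169, 75 to 581, 70.9 to 292 and 32.5 to 102 CPM. Of 7 cortical TEC markers 1 was called, Cxcl12, MHCIIhi-biased at 62.1 and 58.9 CPM in Tspan8negMHCIIlo, 7.49 and 8.33 in Tspan8negMHCIIhi, 11 and 10.5 in Tspan8posMHCIIlo and 4.78 and 7.72 in Tspan8posMHCIIhi with -2.15 ± 0.36 (SE, edgeR adjusted p = 0.00384), and the list had a median of -0.39 and a sum between 136 and 975 CPM. In Tspan8negMHCIIlo the thymocyte sum was higher in replicate 2, as were Ets1, Notch3 (77 and 177 CPM), Mcm6 (119 and 145) and Mcm7 (111 and 144). Ifit3 (212 and 120) and Rtp4 (80.9 and 54.7) were lower in replicate 2. The part of thymocyte RNA in the Tspan8negMHCIIlo values of these and other genes was not tested. Each library holds many cells, so fewer cells of a type and less RNA in each cell cannot be told apart for any gene above.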

How the data were processed

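RNA was sequenced from sorted mTECs in 8 libraries, 2 for each of 4 subsets. The deposited table holds estimated counts per gene, which the authors made with Salmon 1.8.0 on mouse transcripts (mm10) from libraries of pre-amplified cDNA, and the submitters' processing notes also name FastQC and DESeq2 1.30.0. The labels describe a strand-specific kit, so use of strand is uncertain. All 8 columns were matched to samples by their description labels, with 0 columns unused. Values were rounded to whole counts. Of 25466 gene identifiers 25336 had a symbol.

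Genes with enough counts (filterByExpr of edgeR 4.0.16, 17006 genes) were fitted with TMM scaling and edgeR's quasi-likelihood test over the 4 subset means, and the interaction contrast was adjusted by Benjamini-Hochberg over all genes tested. Calls needed an adjusted p below 0.01 together with a log2 difference of 1 or more in size. Fold changes of single genes were not read where a subset averaged at most 3 counts, but list medians take in all tested members. Ratios of single libraries were formed after adding 0.5 CPM. With 2 libraries per subset no exact permutation test of a single gene can pass 0.05, so none was made. The labels call the 2 libraries of a subset biological replicates, and p-values measure the spread between them. R 4.3.3, limma 3.58.1 and DESeq2 1.42.0 gave alternatives. On simulated data for the interaction over 17006 genes, edgeR recovered 21% of changes of 1.5 and 67% of changes of 3 on the log2 scale, with 7 false calls. The simulation gave a gene the same mean and dispersion in all subsets and placed every change in Tspan8posMHCIIlo alone. In the data the subsets differed in level and in replicate noise, and most single shapes lay in Tspan8neg subsets. These rates therefore do not carry over to the calls made here.

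Genes named were 7 sort and stage markers (Tspan8, H2-Ab1, Aire, Cd80, Ivl, Krt10 and Epcam), the 10 of smallest adjusted p in each direction, the 5 of largest interaction in each single shape and among genes called in opposite directions, and up to 4 called members with values in each of 49 lists. All but the markers and list members had to be protein-coding, named, above 3 counts in every subset, at 10 CPM or more in 1 subset and free of overlap between the ratios of the MHCII levels. The members, lists and tests were chosen with earlier results of these data known. Some genes overlap others, and their estimated counts can be split between them. A few genes that the rule names are not reported here.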

Additional observations from a re-analysis of the deposited data

Results flagged for a closer look

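The Tspan8 difference itself differed between the 2 MHCII levels by the interaction test of edgeR in 783 genes. Among the named genes the log2 interaction was 3.86 for Hal, 3.12 for Slc4a8, 2.64 for Strip2, 3.01 for Adgrg6, 4.32 for Psca, 2.44 for Ankrd33b, 2.56 for Plekhs1, 3.38 for Klk7, 3.06 for Pigz and 2.55 for Tnnt2, all higher in MHCIIlo. It was -2.27 for Igfbp5, -3.97 for Boc, -3.01 for Igfbp4, -2.83 for Krt5, -2.25 for Ccn1, -3.54 for Ccl21a, -2.15 for Runx1, -3.86 for Car8, -1.94 for Trim29 and -1.83 for Hspb1, all higher in MHCIIhi. In Spock1 (3.71), Smyd1 (4.09), Tmprss11d (3.95) and Dgkk (3.46) the Tspan8 difference was called in opposite directions at the 2 levels. Subsets of 2 libraries allow no test for a single outlying library.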

How the results depend on the processing

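No gene called both in the main analysis and in any of 17 alternatives changed direction, and the 20 genes of smallest adjusted p were called in all of them. Of the 143 called genes that the naming rule selects, 41 were. Every alternative used the same libraries or all but 1 of them, and the 20 genes were chosen by adjusted p on these libraries. The agreement therefore describes the fits and is not independent support. Against 783 calls (402 MHCIIlo-biased, 381 MHCIIhi-biased, 592 with a single peak or trough or both, 149 list members), DESeq2 gave 956, DESeq2 size factors 788, limma-voom 745, a minimum of 10 counts in 4 libraries 848 and no limit on the log2 difference 798. Without the filter on low counts there were 1267 calls, 676 and 591 in the 2 directions and 898 with a shape. An adjusted p under 0.05 gave 1754, 873 and 881, with 1251 shapes and 257 list members. Thinned to the smallest library there were 332, 167 and 165, with 254 shapes and 69 list members, among 14659 genes tested. Leaving out 1 library gave 189 to 1385 calls, 110 to 629 MHCIIlo-biased, 79 to 756 MHCIIhi-biased, 41 to 246 list members and 164 to 1015 shapes, lowest without replicate 2 of Tspan8posMHCIIlo and highest without replicate 2 of Tspan8negMHCIIlo. The cause of these changes was not tested. With a replicate block 1236 genes were called, 666 of them MHCIIhi-biased. Deviations of same-numbered libraries correlated by 0.004019 to 0.09243, and no source says that a number marks shared mice, so the numbers were not taken as pairs. The interaction of Tspan8, never called, ran from -0.98 to 1.04 when 1 library was left out, and turned positive without replicate 2 of Tspan8negMHCIIlo. That of Ivl, also never called, was -0.41 when thinned, -0.05 without replicate 2 of Tspan8negMHCIIlo, -0.08 without replicate 1 of Tspan8negMHCIIhi and -0.03 without replicate 1 of Tspan8posMHCIIlo, the highest being 0.65 without replicate 2 of Tspan8negMHCIIhi.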
